A study of Mus musculus with 6 samples.

Results

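The miR-106b-25 cluster consists of 3 miRNA hairpins, Mir106b, Mir93 and Mir25, which lie together in an intron of Mcm7, and each hairpin gives a 5p and a 3p mature miRNA. All table entries named mmu-miR-106b, mmu-miR-93 or mmu-miR-25, of either arm, were taken, which gave 6 of the 1039 miRNAs in the table. Liver miRNA was sequenced in 6 mice, 1 library per mouse, all wild type ICR animals of 30 weeks on high-fat diet (HFD). ICR is an outbred stock, so the mice were not genetically identical. After 12 weeks of HFD, the 3 mice of the J group received JTXK granule, a Chinese herbal formula against diabetes, by gavage for 8 weeks, and the 3 mice of the M group (the diabetic model) received sterile water for the same time. Mice on chow diet were not analysed here, so the comparison is between treated and untreated HFD livers. The libraries held 2626353 to 4314134 miRNA reads, and levels are given as RPM, the reads of a miRNA per 1000000 miRNA reads of its library.

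Mcm7 encodes a subunit of the helicase that unwinds DNA at replication forks, and its transcription rises in dividing cells under E2F factors. The 3 hairpins are cut from the same transcript by Drosha and then by Dicer, after which usually a single arm of each hairpin is kept in Argonaute and the other is degraded. Bases 2 to 8 of a mature miRNA, the seed, largely decide which mRNAs it represses. miR-106b-5p and miR-93-5p belong to the miR-17 seed family, known to repress the cell cycle inhibitor Cdkn1a, and miR-25-3p belongs to the seed family of miR-25 and miR-92a, known to repress the pro-apoptotic gene Bcl2l11.

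The mature sequences of the 6 arms are shown because their seeds sort them into families. They were read from the RefSeq table of the GRCm38.p6 build, in which all 6 were matched by name, and the seed is in capitals.
mmu-miR-106b-5p: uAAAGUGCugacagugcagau
mmu-miR-93-5p: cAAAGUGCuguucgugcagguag
mmu-miR-25-3p: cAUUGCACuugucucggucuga
mmu-miR-106b-3p: cCGCACUGuggguacuugcugc
mmu-miR-93-3p: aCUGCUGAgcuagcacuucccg
mmu-miR-25-5p: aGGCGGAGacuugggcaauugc

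miR-106b-5p and miR-93-5p thus share the seed AAAGUGC, and aligned without gaps from the 5′ end they have the same base at 16 of 21 positions. The differences, counted from 1 at the 5′ end with the base of miR-106b-5p given before that of miR-93-5p, are U1C, A11U, C12U, A13C and A20G. miR-25-3p has the seed AUUGCAC and matches miR-106b-5p at only 5 of 21 positions. No other mouse miRNA of the RefSeq table has the seed of miR-106b-3p, miR-93-3p or miR-25-5p.

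The nearest relatives come from 2 paralogous clusters on other chromosomes, the miR-17 cluster (miR-17 to miR-92a-1) and the miR-106a-363 cluster, and they are shown because reads of such close sequences could be exchanged between entries.
mmu-miR-17-5p: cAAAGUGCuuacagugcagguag
mmu-miR-20a-5p: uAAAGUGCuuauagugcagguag
mmu-miR-92a-3p: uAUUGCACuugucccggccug

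miR-106b-5p differs from miR-17-5p at 3 of 21 positions (U1C, G10U and A20G), and miR-25-3p from miR-92a-3p at 3 of 21 (C1U, U14C and U18C). How reads that fit several miRNAs were assigned is not given in the sources used here.

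The hairpins follow each other on the minus strand of chromosome 5, within intron 13 of the 15-exon Mcm7 transcript (intron at chr5:138165162-138165909, 748 bases, GENCODE annotation of GRCm38). Transcription meets Mir106b first, then Mir93 after 126 bases and Mir25 after another 118 bases, so that the cluster spans 498 bases. The hairpins are printed from RefSeq with both mature arms in capitals, to show where each arm sits. The submitters' notes name the mm9 build, the table itself holds no positions, and all positions given here are those of GRCm38.
Mir106b, chr5:138165737-138165818: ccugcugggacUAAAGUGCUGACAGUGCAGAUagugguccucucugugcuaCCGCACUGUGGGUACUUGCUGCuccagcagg
Mir93, chr5:138165523-138165610: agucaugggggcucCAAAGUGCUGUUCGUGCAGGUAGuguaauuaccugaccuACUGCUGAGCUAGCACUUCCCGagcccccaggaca
Mir25, chr5:138165321-138165404: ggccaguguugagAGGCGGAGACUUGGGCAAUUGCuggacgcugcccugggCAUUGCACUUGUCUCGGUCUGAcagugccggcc

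M group replicate 1 stood apart from the other libraries, and this touches all results below. It also differs in its label, which begins with MX1, while those of the other M libraries begin with MX2 and those of all J libraries with GJ2. What these codes stand for is not given in the sources used here. Over the 548 miRNAs with a mean above 1 RPM in at least one group, it was the highest of the 6 libraries for 33.6% and at least 1.5 times every other library for 20.3%, a share that was 0.182%, 3.28% and 6.75% for J group replicates 1 to 3 and 1.46% and 1.82% for M group replicates 2 and 3. The liver label was met by its defining markers, since the hepatocyte miRNA mmu-miR-122-5p took 208683 to 262490.1 RPM in each library. In whole tissue, a change in the number of cells of a type and a change in RNA per cell cannot be told apart.

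The 6 arms kept the same order of level in every library: miR-25-3p was the most abundant, followed by miR-93-5p, miR-106b-3p, miR-106b-5p, miR-25-5p and miR-93-3p. By mean RPM over the 6 libraries, miR-25-3p stood at place 47 among the 548 miRNAs and miR-93-3p at place 402. Over the libraries, the range of miR-106b-3p overlapped those of miR-93-5p and miR-106b-5p, and the ranges of miR-25-5p and miR-93-3p overlapped, while the other neighbours in this order did not overlap. A read covers a whole mature miRNA, so these levels need no correction for length, although ligation can favour some sequences.

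**Figure D1:**
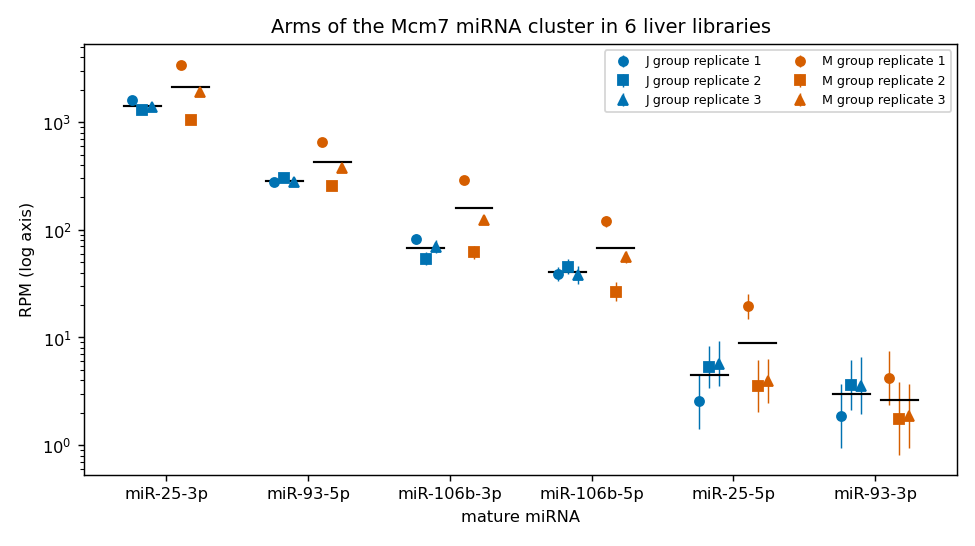
RPM (log axis) of the 6 arms in each library, with J group libraries in blue and M group libraries in orange, the replicate number as the symbol, 95% Wilson intervals for counting error as thin bars and the group mean as a black line. M group replicate 1 (orange circles) is the highest library for each arm, and M group replicate 2 (orange squares) lies within or below the J group libraries.

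None of the 6 arms passed the thresholds of the study (absolute log2 fold change above 0.3 and unadjusted p under 0.05) between the J group and the M group by limma on log2(RPM + 1), where 5.29% of the 548 miRNAs did (3.83% lower and 1.46% higher in the J group). The count was also 0 by edgeR's quasi-likelihood test, which called 8.21% of all miRNAs, and by DESeq2, which called 6.57%, both on the recovered reads, and 0 arms had an unadjusted p under 0.05 by limma. For all 6 arms the J and M libraries overlapped, while they did not for 13.5% of all 548. Of the 6 arms, 5 were lower and 1 was higher in the J group by the sign of the log2 fold change alone, with a median of -0.48 against -0.13 over all 548 miRNAs, of which 58.9% were lower. The size depended on single M group libraries, and for miR-106b-5p, miR-25-5p and miR-25-3p the sign turned without M group replicate 1. Without M group replicate 1, 4 arms were higher and 2 lower (42.6% of the 519 miRNAs then tested were higher), with a median log2 fold change of 0.03, and 0 passed, where 6.55% did. Without M group replicate 2, 4 arms passed, each lower in the J group, where 8.36% of the 550 miRNAs then tested passed, 7.09% lower in the J group. Their adjusted p from limma was 0.579.

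miR-25-3p, the arm that carries the seed shared with miR-92a, had 1607, 1294 and 1370.0 RPM in J group replicates 1 to 3 and 3429, 1045 and 1916 RPM in M group replicates 1 to 3. The J libraries lay close together, between the lowest and the middle M library, and M group replicate 1 was well above all. The J mean was 1424 ± 163 RPM (SD, n = 3) and the M mean 2130.0 ± 1206 RPM (SD, n = 3). On the log2 scale the fold change was -0.42, with a standard error (SE) of 0.40 and a limma p of 0.74 after Benjamini-Hochberg adjustment. Without M group replicate 1 it was 0.0026, and without M group replicate 2 it was -0.85. Each library held 3564 to 9006 reads of this arm, so counting error was small beside the difference between mice. The other arm of the hairpin, miR-25-5p, was rare. It had 2.55, 5.30 and 5.70 RPM in the J libraries and 19.4, 3.52 and 3.96 RPM in the M libraries. The value of M group replicate 1 came from 51 reads, and the remaining 5 libraries had 11 to 19 reads. Its log2 fold change was -0.54 (SE 0.62, adjusted p = 0.79, limma), and without M group replicate 1 it was 0.17.

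miR-93-5p, a miR-17 family member, had 275, 302 and 279 RPM in the J libraries and 655, 257 and 378 RPM in the M libraries. The J group varied little here, the highest J library being 1.10 times the lowest, against 2.55 times in the M group. The means were 286 ± 14.6 RPM (SD, n = 3) and 429.8 ± 204 RPM (SD, n = 3), a log2 difference of -0.48 on RPM + 1 (SE 0.34, adjusted p = 0.71, limma). This became -0.13 without M group replicate 1 and -0.80 without M group replicate 2. In the table, the name of this entry carries the range 1 to 19 and the length 23, where the length is that of the RefSeq mature sequence. The other 5 arms have ranges that end at 21 or 22, and what the range stands for is not given in the sources used here. miR-93-3p was the rarest arm and the only one whose mean was higher in the J group. It had 1.85, 3.63 and 3.56 RPM in the J libraries and 4.19, 1.76 and 1.86 RPM in the M libraries, from 6 to 13 reads each. The 95% Wilson intervals of the highest library (2.34 to 7.5 RPM) and the lowest (0.806 to 3.84 RPM) overlapped. The difference between these libraries was not tested. The J group was higher by 0.19 on the log2 scale (SE 0.39, adjusted p = 0.88, limma).

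With all 6 libraries, miR-106b-3p had the largest absolute log2 fold change of the 6 arms, and both arms of its hairpin were present at comparable levels. It had 81.8, 53.9 and 69.5 RPM in the J libraries and 288, 61.9 and 124 RPM in the M libraries. Of the M libraries, replicates 1 and 3 lay above all J libraries and replicate 2 lay among them. The means were 68.4 ± 14.0 RPM (SD, n = 3) and 158 ± 117 RPM (SD, n = 3). This gave -0.94 on the log2 scale (SE 0.53, adjusted p = 0.71, limma). It stayed below 0 when any library was left out, from -1.48 without M group replicate 2 to -0.38 without M group replicate 1. In the latter fit miR-93-3p, at 0.48, had the larger absolute value. miR-106b-5p, with the miR-17 family seed, had 38.7, 45.5 and 38.1 RPM in the J libraries and 119.6, 26.7 and 56.3 RPM in the M libraries. The J libraries again fell between the lowest M library and the next. The log2 fold change of -0.47 (SE 0.51, adjusted p = 0.78, limma) turned to 0.064 without M group replicate 1.

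**Figure D2:**
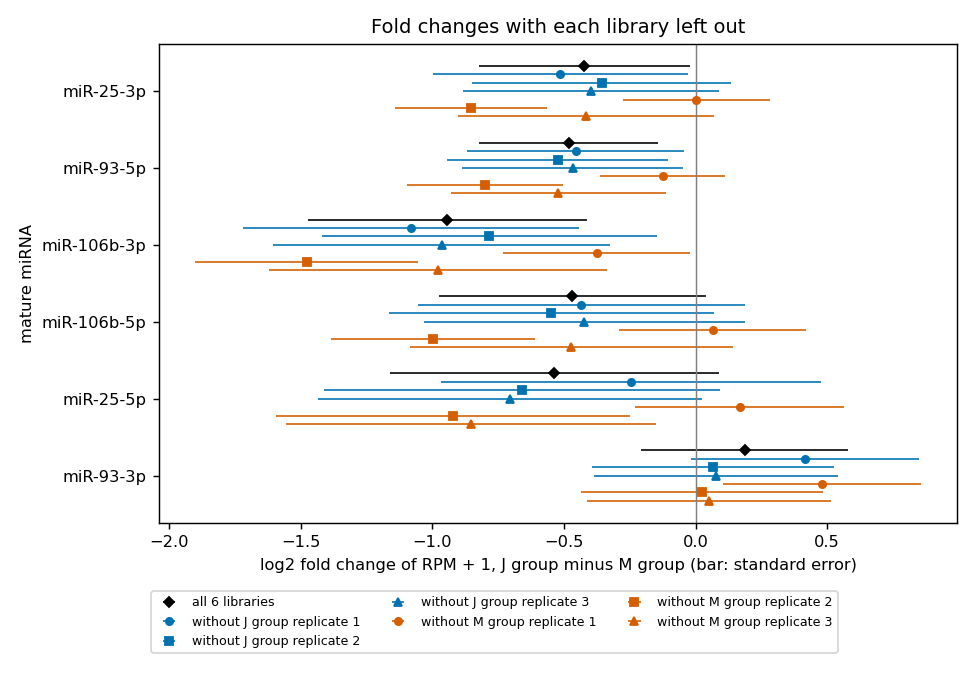
Log2 fold change of RPM + 1 (J group minus M group, x axis) of the 6 arms with all 6 libraries (black diamonds) and with each library left out (blue for J, orange for M, the symbol giving the replicate), and the limma standard error as bars. The values without M group replicate 1 (orange circles) lie to the right, near 0 for miR-25-3p and miR-106b-5p, and those without M group replicate 2 (orange squares) lie farthest to the left for the 5 arms that were lower in the J group.

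The spread between mice was larger in the M group than in the J group for all 6 arms (SD of log2(RPM + 1)), which was so for 57.3% of the 548 miRNAs. The highest M library was 2.38 to 5.52 times the lowest, against 1.10 to 2.24 times in the J group. M group replicate 1 was the highest library for 6 of 6 arms and at least 1.5 times every other library for 5 of 6. It was 3.4 times the next library for miR-25-5p, 2.32 times for miR-106b-3p, 2.12 times for miR-106b-5p, 1.79 times for miR-25-3p, 1.73 times for miR-93-5p and 1.15 times for miR-93-3p. M group replicate 3 had 2.11 times the miR-106b-5p, 2.01 times the miR-106b-3p, 1.83 times the miR-25-3p and 1.47 times the miR-93-5p of M group replicate 2. For miR-93-3p and miR-25-5p these libraries were closer, at 1.06 and 1.12 times, less than the spread within the J group. Summed over the 6 arms, the cluster took 2007, 1704 and 1766 RPM in the J libraries and 4515, 1395 and 2480.4 RPM in the M libraries.

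Within a library, ratios between the hairpins do not depend on how the libraries are scaled. miR-25 supplied 75.1% to 80.2% of the reads of the cluster, miR-93 13.8% to 18.5% and miR-106b 5.83% to 9.03%, although 1 transcript carries all 3 hairpins. The ratio of miR-25-3p to miR-93-5p was 4.07 to 5.84 over the 6 libraries, with a J mean log2 ratio of 2.31 ± 0.22 (SD, n = 3) and an M mean of 2.25 ± 0.20 (SD, n = 3), which did not differ beyond this spread (p = 0.8, exact two-sided permutation test). M group replicate 1, high in both arms, lay inside this range with a log2 ratio of 2.39. The share of the miR-106b hairpin was 6.01%, 5.83% and 6.09% in the J libraries, against 9.03%, 6.35% and 7.28% in the M libraries. Every J library was below every M library here, a separation seen for 13.5% of single miRNAs and 11.6% of arm ratios. Likewise the log2 ratio of miR-106b-3p to miR-25-3p had a J mean of -4.39 ± 0.17 (SD, n = 3) and an M mean of -3.87 ± 0.26 (SD, n = 3), a difference of -0.53. This gave p = 0.1 by the exact two-sided permutation test, the smallest that 3 against 3 libraries allow, and an adjusted p of 0.3 over the 3 ratios compared. Without M group replicate 1 the difference was -0.38. The ratio of miR-106b-3p to miR-93-5p differed by -0.47 (exact permutation test, p = 0.3), with overlapping groups.

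Mir93 and Mir25 each gave almost all of their reads from a single arm, the same arm in all libraries. From Mir93, 98.7% to 99.5% of the reads were of the 5p arm, and from Mir25, 99.4% to 99.8% were of the 3p arm. From Mir106b, both arms were well read. The 5p arm took 32.1%, 45.8% and 35.4% of the hairpin's reads for J group replicates 1 to 3, against 29.3%, 30.1% and 31.2% for M group replicates 1 to 3. J group replicate 2 was the highest, with a 95% Wilson interval from 40.7% to 51.0%, which included equal amounts of both arms. It lay above the intervals of the 3 M libraries, reaching from 25.2% to 35.5%, and also above that of J group replicate 1 (28.2% to 36.2%). The intervals of J group replicates 1 and 3 (30.2% to 41.0% for replicate 3) overlapped those of the M libraries.

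The log2 ratio of the 5p to the 3p arm, each with 1 RPM added, was compared between the groups by limma over the 129 mouse hairpins whose arms both had a mean above 1 RPM in a group. Of these, 7.75% passed the thresholds and none had an adjusted p under 0.05. Among the 3 hairpins of the cluster, 1 passed. For miR-93 the log2 ratio was 6.60, 6.03 and 5.94 in the J libraries, against 6.98, 6.54 and 7.05 in the M libraries. J group replicate 1 lay just above M group replicate 2, so the groups overlapped. The difference was -0.67 (SE 0.29, unadjusted p = 0.039, adjusted p = 0.6 from limma), and it rested on the 6 to 13 reads of miR-93-3p in each library. It did not pass without M group replicate 1 (-0.61), nor without J group replicates 2 (-0.59) or 3 (-0.54) or M group replicate 3 (-0.57), and nor with 0.1 RPM (-0.74) or 10 RPM (-0.52) added in place of 1 RPM. For miR-106b the J libraries (-1.06, -0.24 and -0.85) all lay above the M libraries (-1.26, -1.18 and -1.13), where 11.6% of the 129 hairpins had groups that did not overlap. The difference of 0.48 (SE 0.36, adjusted p = 0.69) did not pass and fell to 0.24 without J group replicate 2. For miR-25 the difference was -0.11 (SE 0.35, adjusted p = 0.94), smaller than the spread between libraries.

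**Figure D3:**
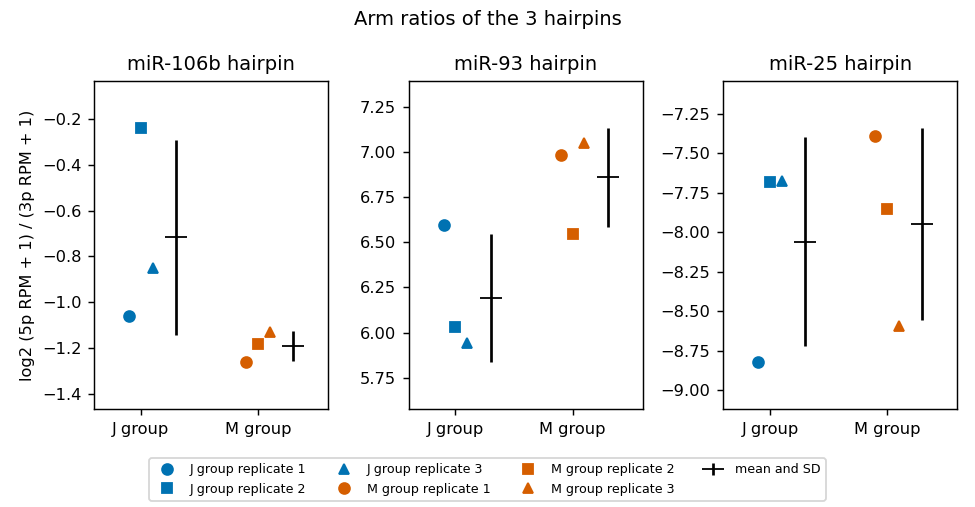
Log2 ratio of the 5p to the 3p arm (each RPM + 1) for the 3 hairpins in each library, with the group mean and SD in black and a y axis of its own for each hairpin. The ratios of miR-106b are near 0 while those of miR-93 and miR-25 lie far from 0 on opposite sides, and J group replicate 2 is the highest for miR-106b at -0.24.

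The seed families were then summed, since miRNAs with the same seed can act on the same mRNAs. For the seed AAAGUGC, miR-106b-5p and miR-93-5p together supplied 47.3%, 54.2% and 56.7% of the family's RPM in the J libraries. In the M libraries they supplied 32.7%, 49.6% and 50.9%, the rest coming from miR-17-5p, miR-20a-5p, miR-20b-5p and miR-106a-5p. M group replicate 1 had the lowest share although its cluster arms were the highest, and the other loci of the family stood at 1594 RPM there against 243 to 419.7 RPM elsewhere. For the seed AUUGCAC, miR-25-3p supplied 19.8%, 21.0% and 23.8% in the J libraries, against 32.9%, 15.2% and 25.2% in the M libraries. In this family M group replicate 1 had the highest share. The largest part came from miR-92a-3p, with 6488, 4810 and 4348 RPM in the J libraries and 6824, 5789 and 5629 RPM in the M libraries, which overlapped.

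**Figure D4:**
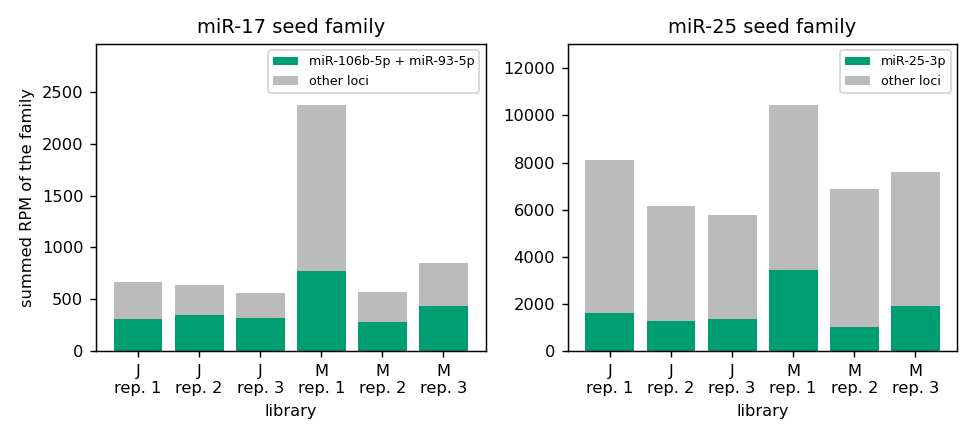
Summed RPM of the miR-17 seed family (left) and the miR-25 seed family (right) in each library, with the part from the Mcm7 cluster in green and the part from other loci in grey. In M group replicate 1 the miR-17 family reaches 2368 RPM against 560 to 854 RPM in the other libraries.

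Among the other members of these families, miR-106a-5p, miR-20b-5p and miR-363-3p reached the minimum of 1 RPM only through the M group, so no count of calls is given over either family. The other members are given by their values, and none of miR-17-5p, miR-20a-5p, miR-32-5p, miR-92a-3p and miR-92b-3p passed by limma with or without M group replicate 1. miR-17-5p had 103, 101 and 70.2 RPM in the J libraries and 536, 97.0 and 114 RPM in the M libraries (log2 fold change -1.0, SE 0.63, adjusted p = 0.71, and -0.22 without M group replicate 1). miR-20a-5p had 246, 193 and 171 RPM in the J libraries and 957, 190 and 305 RPM in the M libraries (-0.92, SE 0.55, adjusted p = 0.71, and -0.26 without M group replicate 1). Both thus had the same single high library as the Mcm7 cluster. miR-32-5p, which shares the seed of miR-25-3p and comes from a locus outside these clusters, had 31.8, 41.0 and 41.4 RPM in the J libraries and 48.0, 43.7 and 52.1 RPM in the M libraries. All its J libraries lay below the M libraries, as for 13.5% of all miRNAs, M group replicate 1 was not the highest, and the log2 fold change was -0.33 with and without that library (SE 0.24, adjusted p = 0.71 with all libraries). miR-92b-3p was rare, with 4 to 11 reads per library and a log2 fold change of -0.34 (adjusted p = 0.77).

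The paralogous clusters were followed in full, and 15 of their 22 listed arms were tested. Of these, miR-18a-3p, miR-92a-1-5p, miR-106a-5p, miR-18b-5p, miR-20b-5p, miR-363-3p and miR-363-5p reached the minimum of 1 RPM only through the M group, so that they had to be higher there, and no count or median is given over the 15. The other arms had a mean above 1 RPM in the J group too, and without M group replicate 1 their log2 fold changes ran from -0.47 for miR-20a-3p to 0.13 for miR-17-3p. miR-18a-5p had 9.74, 8.37 and 8.56 RPM in the J libraries and 127, 9.97 and 14.7 RPM in the M libraries. Other arms of this cluster were less extreme in M group replicate 1, with miR-19a-3p at 55.2 RPM against 8.58 to 23.4 RPM, miR-20a-3p at 19.4 against 1.95 to 7.13 RPM, miR-17-3p at 40.7 against 9.27 to 17.3 RPM, and miR-19b-3p, which miR-106a-363 can also supply, at 335 against 123 to 166 RPM. The arms miR-18a-3p and miR-92a-1-5p had 9 and 19 reads in that library and at most 7 reads in any other.

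The miR-106a-363 cluster was almost unread in 5 libraries and well read in M group replicate 1. The arms that come from it alone had 831 reads in M group replicate 1 (316 RPM) and 5 to 14 reads in each of the other libraries. miR-363-3p, with the seed of miR-25-3p, had 311 reads there and 1 to 9 elsewhere. miR-18b-5p had 244 reads there and 0 to 3 elsewhere, miR-20b-5p 186 against 2 to 3, and miR-106a-5p 79 against 0 to 1. miR-363-5p had 9 reads there and 0 in all others, which allows up to 0.695 to 1.07 RPM in those libraries by a limit of 3 reads. No fold change is given for these arms because the other libraries lie at or near that limit.

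**Figure D5:**
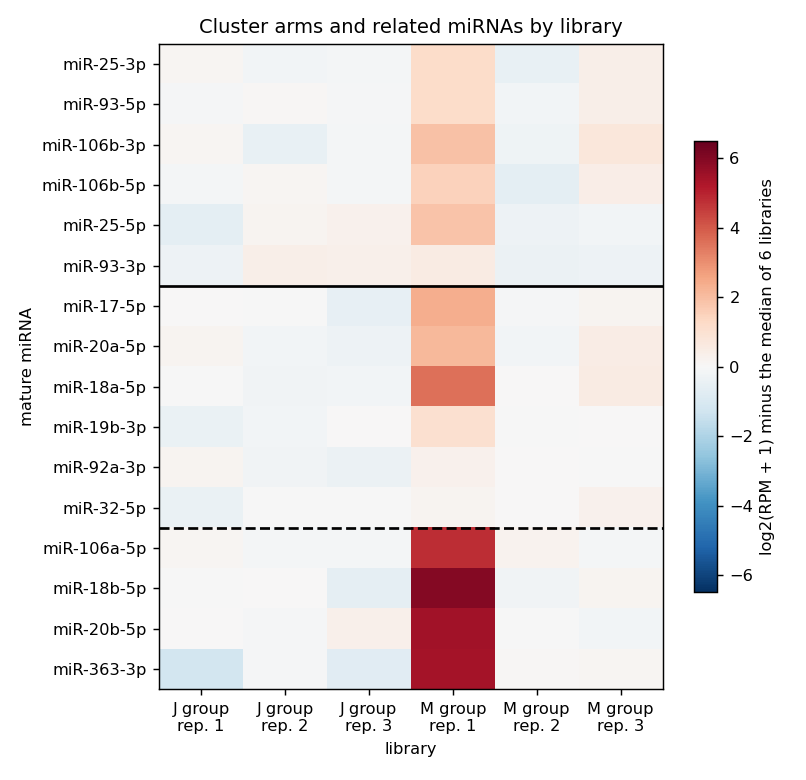
Log2(RPM + 1) of the 6 arms of the Mcm7 cluster (above the solid line), of related miRNAs of the miR-17 cluster and miR-32-5p (middle) and of arms from miR-106a-363 (below the dashed line) in each library, as the difference from the median of the 6 libraries. M group replicate 1 has the highest value in each row but that of miR-32-5p, by little for miR-92a-3p and miR-93-3p. Its colour is strongest for miR-18b-5p, which had 244 reads there and 0 to 3 elsewhere.

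Markers of the cell types of the liver were read in the same libraries. Summed over 5 leukocyte miRNAs, M group replicate 1 had 4228 RPM and the other libraries had 595 to 1079.7 RPM. This came from miR-142a-5p (3709 RPM against 525 to 961 RPM) and miR-142a-3p (444 RPM against 25.3 to 47.0 RPM), while miR-223-3p, a myeloid miRNA, was at 25.1 RPM against 15.8 to 38.2 RPM, and miR-150-5p, a miRNA of mature lymphocytes, was at 47.2 RPM against 25.8 to 38.7 RPM. miR-155-5p was at 3.43 RPM against 1.39 to 7.22 RPM. In M group replicate 1, 3 of the 5 leukocyte miRNAs were thus at their highest. Stromal miRNAs (3 of 4 listed) summed to 24164 RPM in that library, against 11945 to 19163 RPM in the others. Only miR-143-3p was highest there, at 18708 RPM against 8162 to 12166 RPM. The highest library was M group replicate 3 for miR-145a-5p (6964 RPM, against 5427 in M group replicate 1) and miR-214-3p (33.3 against 29.7 RPM). Of the stromal miRNAs, miR-145a-5p (log2 fold change -0.46) and miR-214-3p (-0.55) passed the thresholds by limma, both lower in the J group, where 3.83% of all miRNAs did. miR-143-3p (-0.41) did not. Hepatocyte miRNAs (4 of 4) summed to 329007 to 378100.3 RPM in the J group and 333259 to 379781 RPM in the M group. The red blood cell miRNAs (2 of 3) and the endothelial miRNA (1 of 2) in M group replicate 1, at 4048 and 4761 RPM, lay inside the range of the other libraries. The part of these cell types in the levels of the Mcm7 cluster was not tested.

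Among the 270 mouse miRNAs outside the cluster with a mean of at least 10 RPM, those most like the major arm of each hairpin were found by the root mean square distance of log2(RPM + 1), centred over the 6 libraries. Nearest to miR-106b-3p were miR-20a-5p at a distance of 0.20 and miR-3473b at 0.25, where the median over the 270 was 0.85. Nearest to miR-93-5p were miR-1943-5p and miR-421-3p, both at 0.18 (median 0.54). Nearest to miR-25-3p were let-7i-5p at 0.25 and miR-1981-5p at 0.27 (median 0.62). Of these, let-7i-5p had 2717, 2009 and 2236 RPM in the J libraries and 7005, 2693 and 3370.1 RPM in the M libraries. Within the cluster, miR-25-3p and miR-93-5p were closer to each other, at 0.18, than miR-25-3p was to any of the 270. miR-106b-3p, in contrast, was nearer to miR-20a-5p of another cluster than to miR-106b-5p of its own hairpin, at 0.34, or to miR-25-3p, at 0.31. That comparison favours miR-20a-5p, which was picked as the nearest of 270. M group replicate 1 was 3.14 times the next library for miR-20a-5p and 2.32 times for miR-106b-3p.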

How the data were processed

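Small RNA libraries were sequenced from liver. The authors cleaned the reads, identified miRNAs against miRBase and Rfam and deposited RPM, the reads of a miRNA per 1000000 miRNA reads of its library. The submitters' notes name mm9, and the aligner and mismatch rule are not given in the sources used here. All deposited RPM values were whole multiples (within 0.01 of a read) of 0.232 to 0.381 RPM, the value of 1 read, so whole reads were recovered.

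Groups were taken from the labels. Log2(RPM + 1) was compared by limma 3.58.1 in R 4.3.3 (variance trend, two-sided) over the 548 miRNAs with a mean above 1 RPM in a group, with Benjamini-Hochberg adjustment over all, and likewise for arm ratios over 129 hairpins. Thresholds were those of the study, which ties no named test to its miRNA comparison. Ratios between hairpins were compared by exact permutation. Alternatives were other pseudocounts, filters and scalings, edgeR 4.0.16 and DESeq2 1.42.0 on recovered reads, a replicate block and each library left out. The scripts were tested on simulated data. Intervals (Wilson) and the limit of 3 reads cover counting error only.

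The members and lists were chosen with earlier results of these data known. Text names all members, tested related miRNAs or their ranges, and the 2 nearest patterns per major arm.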

Additional observations from a re-analysis of the deposited data

How the results depend on the processing

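Each arm was recomputed under 17 alternatives, of which 11 keep all libraries. All 6 arms kept their side of 0 and of the thresholds under those 11 (10 for miR-93-3p and miR-25-5p, which a filter at a mean of 10 RPM removed), with log2 fold changes of -0.59 to -0.17 for miR-106b-5p, -1.05 to -0.76 for miR-106b-3p, -0.52 to -0.20 for miR-93-5p, 0.05 to 0.34 for miR-93-3p, -0.87 to -0.29 for miR-25-5p and -0.46 to -0.15 for miR-25-3p. The median over all miRNAs moved by 0.21 under quantile normalization and by 0.10 under median-of-ratios scaling, and the median of the 6 arms was then -0.18 and -0.37.

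With each library left out, the number of arms past the thresholds ranged from 0 to 4. The log2 fold change ranged from -0.997 to 0.064 for miR-106b-5p, from -1.48 to -0.38 for miR-106b-3p, from -0.80 to -0.13 for miR-93-5p, from 0.03 to 0.48 for miR-93-3p, from -0.92 to 0.17 for miR-25-5p and from -0.85 to 0.0026 for miR-25-3p, the upper ends being those without M group replicate 1. The lower ends were those without M group replicate 2. Adjusted p over all alternatives ranged from 0.572 to 0.996.

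The arm ratio of miR-93 lost its call with 0.1 RPM added (-0.74), with 10 RPM added (-0.52) and with the replicate block (-0.67, unadjusted p = 0.053 from limma), and ranged from -0.87 to -0.54 with a library left out. That of miR-25 turned to 0.13 with 10 RPM added and ranged from -0.44 to 0.27 with a library left out, and that of miR-106b from 0.24 to 0.65. The causes were not tested. Leaving out libraries for the ratios between hairpins was chosen after seeing the data, and gave -0.69 to -0.25 for miR-106b-3p to miR-93-5p, -0.057 to 0.17 for miR-25-3p to miR-93-5p and -0.63 to -0.38 for miR-106b-3p to miR-25-3p.

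Libraries with the same replicate number come from different mice, and the labels name no pairing. Their deviations correlated at 0.05, 0.06 and -0.01, against -0.24 to 0.16 for libraries of different numbers. Whether equal numbers mark a shared batch or day was not tested. The replicate block changed no call of a single arm. With it the SE fell from 0.53 to 0.38 for miR-106b-3p (unadjusted p from 0.12 to 0.053, limma) and from 0.40 to 0.30 for miR-25-3p. The SE rose from 0.39 to 0.47 for miR-93-3p and from 0.62 to 0.69 for miR-25-5p, and changed little for the other arms. Depth limits miR-93-3p, with 6 to 13 reads per library, and miR-25-5p, with 11 to 19 reads outside M group replicate 1, which had 51.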
